A study of Mus musculus with 20 samples.

Results

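Retinas of postnatal day 21 (P21) mice homozygous for CrxRip were compared directly with P21 retinas that lack Nrl, in every gene of the P21 table. The comparison used 4 of the 20 samples of the series, 2 labelled CrxRip/Rip and 2 labelled Nrl-/-, and all 1497 genes of that table. All mice had the C57BL/6J background, and each sample was whole retina pooled from 2 retinas. CrxRip/Rip retinas carry CrxRip, an allele of the homeobox gene Crx with a dominant effect, on both copies of the chromosome, and their labels name no other mutation. Nrl-/- retinas carry 2 normal copies of Crx and have no functional copy of Nrl. P21 Crx-/- retinas, P21 wild-type retinas and both genotypes at postnatal day 2 (P2), each with 2 samples, gave levels to set beside those of the pair, and P21 CrxRip/+ retinas (2 samples) entered the fit and are given for 3 genes. The labels do not say whether the 2 samples of a genotype came from separate animals, so the spread between samples may be partly technical. The p-values rest on that spread pooled over all 5 P21 genotypes, not on the compared pair alone. The labels name no transgene, sort or culture, and since whole retina was sequenced, fewer cells of a type and less RNA per cell cannot be told apart.

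Photoreceptor precursors become rods or cones under a small set of transcription factors. OTX2 commits progenitors to the photoreceptor fate and acts upstream of CRX, the homeodomain protein that drives most rod and cone genes. NRL, a leucine zipper protein of the Maf family, directs precursors to the rod fate, partly through the nuclear receptor NR2E3, which represses cone genes. Without Nrl the mouse retina forms no rods, and its photoreceptors resemble the cones that express short-wavelength opsin. Nrl-/- retinas therefore hold photoreceptors with a normal CRX but no NRL, and CrxRip/Rip retinas have an altered CRX with an intact Nrl gene. The comparison asks in which genes these retinas differ.

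The stretches before the start sites of 5 genes are shown as a description, and no difference given below rests on them. They are the gene with the largest fall (Opn1sw, also of the cone list), a rod-list gene (Drd4), the gene with the largest rise (Acbd7), and 2 further genes, Gnat2 and Samd7, that were chosen after their letters were seen. The sequences are the 250 bases upstream of an annotated RefSeq start of each gene in GRCm38.p6, read 5′ to 3′ on the gene's strand. The annotated spans of Gnat2 and Drd4 begin farther upstream. The Gnat2 window thus lies inside its gene's span, and the Drd4 window partly so. Capitals mark TAATCC or GGATTA, the homeobox letters that CRX and OTX2 bind, and TGCTGA or TCAGCA, an arm of the site that Maf proteins such as NRL bind. Opn1sw lies at chr6:29380514-29380763 on the minus strand, Gnat2 at chr3:108092816-108093065, Samd7 at chr3:30746043-30746292, Drd4 at chr7:141291768-141292017 and Acbd7 at chr2:3335918-3336167, all on the plus strand.
Opn1sw: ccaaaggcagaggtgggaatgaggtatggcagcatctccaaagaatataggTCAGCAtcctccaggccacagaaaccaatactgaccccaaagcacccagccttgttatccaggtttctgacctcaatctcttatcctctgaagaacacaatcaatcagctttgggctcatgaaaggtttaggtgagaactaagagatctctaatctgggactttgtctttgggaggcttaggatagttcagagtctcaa
Gnat2: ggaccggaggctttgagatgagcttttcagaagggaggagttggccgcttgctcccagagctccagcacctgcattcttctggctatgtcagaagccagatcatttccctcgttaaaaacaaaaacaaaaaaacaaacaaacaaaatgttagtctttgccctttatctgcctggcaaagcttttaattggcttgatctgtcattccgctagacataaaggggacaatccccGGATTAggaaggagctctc
Samd7: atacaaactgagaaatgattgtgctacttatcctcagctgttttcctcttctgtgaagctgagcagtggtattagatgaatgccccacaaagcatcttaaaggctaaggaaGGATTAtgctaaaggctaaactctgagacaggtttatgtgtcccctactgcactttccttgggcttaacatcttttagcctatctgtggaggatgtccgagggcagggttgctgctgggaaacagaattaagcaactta
Drd4: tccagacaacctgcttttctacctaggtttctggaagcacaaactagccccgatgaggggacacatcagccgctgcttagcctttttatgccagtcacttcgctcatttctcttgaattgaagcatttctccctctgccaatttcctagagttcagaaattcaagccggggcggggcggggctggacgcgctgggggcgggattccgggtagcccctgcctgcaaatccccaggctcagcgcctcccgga
Acbd7: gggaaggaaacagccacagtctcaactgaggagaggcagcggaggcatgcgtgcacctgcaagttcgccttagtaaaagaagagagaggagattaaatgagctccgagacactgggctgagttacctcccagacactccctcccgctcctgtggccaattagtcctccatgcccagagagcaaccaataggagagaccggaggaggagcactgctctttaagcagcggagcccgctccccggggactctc
The homeobox letters stood in the promoters of Gnat2 and Samd7, read as GGATTA, and the Maf letters in that of Opn1sw, read as TCAGCA. Neither set of letters was found in these windows of Drd4 and Acbd7. Of 27025 genes with a promoter in the reference, 7.21% held the homeobox letters and 18.0% the Maf letters on either strand. Among the 1154 genes of the P21 table with a promoter there, 9.79% held the homeobox letters and 18.5% the Maf letters. The homeobox letters stood in 12.2% of 533 genes lower in CrxRip/Rip than in Nrl-/- and in 4.86% of 247 higher genes. The Maf letters stood in 18.4% of the lower genes and 18.2% of the higher genes. Among the 66 genes called lower by at least 2 on the log2 scale, 27.3% held the homeobox letters and 36.4% the Maf letters. Of 27 shared photoreceptor genes with a promoter, 44.4% held the homeobox letters, against 20.0% of 10 cone genes and 26.7% of 15 rod genes. The Maf letters stood in 29.6% of the shared photoreceptor genes, in 26.7% of the rod genes and in 1 of the 10 cone genes. These shares are descriptions with no test, and a match of 6 letters is not shown to be a bound site.

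The values were FPKM, fragments scaled by transcript length and by the library's mapped reads. No read counts came with them, so the depth of sequencing is unknown. Summed over the table, FPKM came to 21569.4 and 23570.4 in the CrxRip/Rip samples, against 40702.0 and 39283.4 in the Nrl-/- samples and 55335.3 and 53395.9 in the wild-type samples. Agreement between the samples of a genotype was closer in Nrl-/-. The median absolute difference between them was 0.17 on the log2(FPKM + 1) scale in CrxRip/Rip and 0.11 in Nrl-/-, and 45 genes in CrxRip/Rip and 10 in Nrl-/- differed by at least 1. CrxRip/Rip sample 2 held more lens and blood transcripts than sample 1, and more of the muscle genes Mybph and Tnnc2 given below. The 4 lens crystallin genes of the table summed to 0.3 and 58.3 FPKM in CrxRip/Rip, against 0.2 and 2.4 FPKM in Nrl-/- and 41.6 and 9.7 FPKM in wild type. None of the 4 was called, and without CrxRip/Rip sample 1 all 4 were called higher. Nrl itself was at 0.2 FPKM in both Nrl-/- samples, against 466.1 and 427.6 FPKM in wild type.

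Differences are given as CrxRip/Rip minus Nrl-/- on the log2(FPKM + 1) scale, which understates the change of genes with low FPKM. Calls were made with limma over all 10 P21 samples, at a Benjamini-Hochberg adjusted p below 0.05 over the 1497 genes. The direct comparison called 1000 of the 1497 genes (66.8%), 317 higher (21.2%) and 683 lower (45.6%) in CrxRip/Rip. The table had been selected by its authors for genes that differ in at least 1 comparison, 553 of them in the present one, so these shares describe selected genes. A difference of at least 2 was reached by 88 lower and 8 higher genes. The median difference over all genes was -0.28. Rescaling each sample by the median of ratios moved that median by 0.29 to 0.01 and gave 489 genes higher (32.7%) and 478 lower (31.9%), so the split between the directions depends on the scaling. All 317 higher genes stayed higher after it, 478 of the 683 lower genes stayed lower, and no called gene changed to a call in the other direction.

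Of the gene lists, the cone list had the largest median difference in size. The lists were written with earlier results of these data known, so the counts below describe the list and are not a test. All 16 members of the cone list in the table were lower in CrxRip/Rip than in Nrl-/-, where 45.6% of all genes were, and they were also lower after rescaling and without either CrxRip/Rip sample. Their median difference was -4.24, against -0.28 over all genes. Opn1sw, the short-wavelength cone opsin, had 0.2 FPKM in both CrxRip/Rip samples, against 2501.0 and 2298.6 FPKM in Nrl-/-. That was a difference of -10.96 ± 0.11 (SE), with an adjusted p of 1.27e-10, and wild type lay between the genotypes at 164.5 and 141.0 FPKM. Opn1mw, the medium-wavelength opsin, had 0.5 and 0.7 FPKM in CrxRip/Rip, against 232.4 and 278.1 FPKM in Nrl-/-, a difference of -7.32 ± 0.12 (adjusted p = 2.53e-09). Neither opsin came near overlap between the genotypes.

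The rest of the cone phototransduction cascade was lower to unequal degrees. Arr3, the cone arrestin that quenches active opsin, had 0.4 and 0.8 FPKM in CrxRip/Rip, against 678.0 and 707.8 FPKM in Nrl-/-, a difference of -8.77 ± 0.20 (adjusted p = 1.95e-08). Pde6h, which encodes the cone phosphodiesterase's inhibitory subunit, had 4.7 and 4.3 FPKM in CrxRip/Rip, against 580.2 and 543.3 FPKM in Nrl-/-, a difference of -6.68 ± 0.50 (adjusted p = 1.03e-05). Cnga3, a subunit of the cone cyclic nucleotide-gated channel, was listed at 0 in both CrxRip/Rip samples, against 52.8 and 46.4 FPKM in Nrl-/-. A second group of the same pathway kept a level near or above wild type. Gnat2, the cone transducin alpha subunit whose promoter is printed above, had 88.3 and 94.3 FPKM in CrxRip/Rip, against 805.7 and 764.0 FPKM in Nrl-/- and 83.0 and 68.2 FPKM in wild type. Gnb3, the cone transducin beta subunit, had 108.8 and 144.0 FPKM in CrxRip/Rip, against 732.8 and 722.3 FPKM in Nrl-/- and 122.8 and 119.1 FPKM in wild type. Gngt2, the cone transducin gamma subunit, had 157.2 and 229.1 FPKM in CrxRip/Rip, against 655.3 and 658.0 FPKM in Nrl-/- and 52.6 and 48.8 FPKM in wild type. The differences between CrxRip/Rip and Nrl-/- were -3.09 ± 0.11, -2.53 ± 0.13 and -1.79 ± 0.18 for these 3 subunits in that order (highest adjusted p = 5.32e-05).

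The channel and the effector showed the same unevenness within a complex. Cngb3, the partner of Cnga3 in the cone channel, had 29.6 and 22.5 FPKM in CrxRip/Rip, against 99.9 and 83.3 FPKM in Nrl-/- and 4.7 and 4.8 FPKM in wild type (difference -1.78 ± 0.14, adjusted p = 1.44e-05). Pde6c, the catalytic subunit that Pde6h inhibits, had 73.1 and 46.1 FPKM in CrxRip/Rip, against 425.8 and 429.0 FPKM in Nrl-/- and 30.9 and 33.3 FPKM in wild type (difference -2.86 ± 0.24, adjusted p = 1.99e-05). Thus 1 member of each pair was at or under 5 FPKM in CrxRip/Rip and the other was above wild type. Against wild type, 6 cone genes were higher and 9 lower in CrxRip/Rip, where 36.3% of all genes were higher and 44.3% lower. In Nrl-/- 16 were higher than in wild type and 0 lower, where 40.4% and 31.8% of all genes were. Pde6c, Gnat2, Gnb3, Gngt2 and Cngb3 were named after their values were seen.

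**Figure D1:**
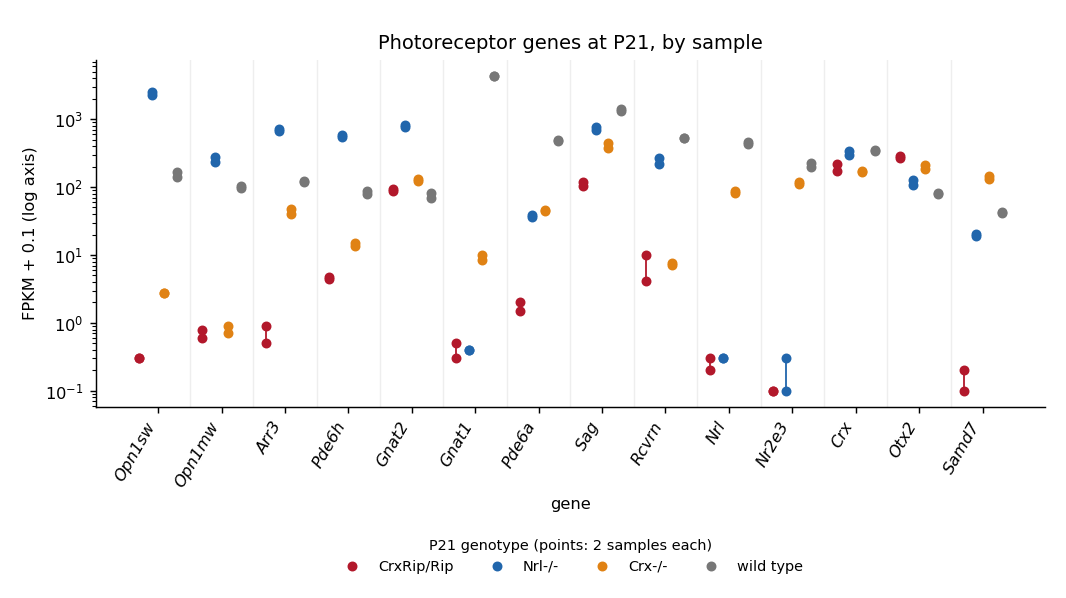
FPKM + 0.1 on a log axis of 14 photoreceptor genes at P21, with 1 point per sample (2 per genotype, joined by a line) for CrxRip/Rip, Nrl-/-, Crx-/- and wild type. The CrxRip/Rip points of Opn1sw lie at 0.2 FPKM, with the Nrl-/- points at 2501.0 and 2298.6 FPKM, while both genotypes lie under 1 FPKM for Gnat1, Nrl and Nr2e3.

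The defining rod genes were near 0 in both genotypes. Nrl had 0.1 and 0.2 FPKM in CrxRip/Rip, against 0.2 FPKM in both Nrl-/- samples (adjusted p = 0.719). Nr2e3, the rod nuclear receptor downstream of NRL, was listed at 0 in both CrxRip/Rip samples, against 0.0 and 0.2 FPKM in Nrl-/- and 223.7 and 198.8 FPKM in wild type. Gnat1, the rod transducin alpha subunit, had 0.2 and 0.4 FPKM in CrxRip/Rip, against 0.3 FPKM in both Nrl-/- samples, and the rod channel gene Cnga1 was listed at 0 in all 4. A difference between the genotypes was not detectable in these genes, which sit at the floor that 1 decimal of FPKM allows.

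Other members of the rod list were called. Of its 21 members, 11 were lower in CrxRip/Rip, where 45.6% of all genes were, 0 were higher and 10 were not called, with a median difference of -0.48. After rescaling 10 were lower and 1 was higher. Pde6a, the alpha subunit of the rod phosphodiesterase, had 1.4 and 1.9 FPKM in CrxRip/Rip, against 36.3 and 39.1 FPKM in Nrl-/- (difference -3.87 ± 0.12, adjusted p = 9.97e-08). Its partner Pde6b was closer between the genotypes, at 8.0 and 5.6 FPKM in CrxRip/Rip, against 15.5 and 15.3 FPKM in Nrl-/- (difference -1.09 ± 0.19, adjusted p = 0.00108). Pde6g, the inhibitory subunit, had 69.8 and 74.6 FPKM in CrxRip/Rip, against 553.4 and 478.3 FPKM in Nrl-/- (difference -2.82 ± 0.15, adjusted p = 1.87e-06). Sag, the rod arrestin, which mouse cones also express, had 118.4 and 104.0 FPKM in CrxRip/Rip, against 687.4 and 753.0 FPKM in Nrl-/- (difference -2.69 ± 0.11, adjusted p = 4.20e-07). Drd4, a dopamine receptor of photoreceptors, had 1.0 and 0.9 FPKM in CrxRip/Rip, against 25.3 and 19.7 FPKM in Nrl-/- (difference -3.58 ± 0.17, adjusted p = 8.30e-07). The 3 phosphodiesterase subunits thus fell by unequal amounts. In none of them did the genotypes overlap, and 52.9% of all genes had both CrxRip/Rip samples below both Nrl-/- samples. Gnb1, the rod transducin beta subunit, had 70.9 and 65.0 FPKM in CrxRip/Rip, against 58.7 and 59.3 FPKM in Nrl-/-. Its difference of 0.20 ± 0.09 was not called (adjusted p = 0.0870), and after rescaling it was the 1 rod member called higher (0.54, adjusted p = 0.00110).

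Genes used by rods and cones alike were mostly lower in CrxRip/Rip. Of the 38 shared photoreceptor genes, 34 were lower, where 45.6% of all genes were, 0 were higher and 4 were not called. Their median difference was -1.10, and after rescaling 27 were lower and 3 higher. Rcvrn, the calcium sensor recoverin, had 4.0 and 9.8 FPKM in CrxRip/Rip, against 269.4 and 221.6 FPKM in Nrl-/- (difference -5.06 ± 0.40, adjusted p = 1.53e-05). Nxnl2, a thioredoxin-like gene of photoreceptors, had 0.1 FPKM in both CrxRip/Rip samples, against 24.4 and 25.9 FPKM in Nrl-/- (difference -4.57 ± 0.13, adjusted p = 7.39e-08). Impg1, a proteoglycan of the matrix around photoreceptors, had 0.9 and 2.1 FPKM in CrxRip/Rip, against 53.4 and 48.7 FPKM in Nrl-/- (difference -4.42 ± 0.23, adjusted p = 1.48e-06). Rdh8, the outer segment enzyme that reduces all-trans-retinal, had 1.1 and 0.8 FPKM in CrxRip/Rip, against 41.6 and 39.0 FPKM in Nrl-/- (difference -4.41 ± 0.17, adjusted p = 3.38e-07). These 4 members fell by over 4 on the log2 scale, while the abundant structural genes fell by less.

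The genes that restore cGMP were among those lower. Guca1a, an activator of the photoreceptor guanylate cyclase, had 62.4 and 52.7 FPKM in CrxRip/Rip, against 422.6 and 468.3 FPKM in Nrl-/- (difference -2.93 ± 0.13, adjusted p = 7.08e-07). Gucy2e, the cyclase itself, had 7.8 FPKM in both CrxRip/Rip samples, against 40.6 and 39.3 FPKM in Nrl-/- (difference -2.22 ± 0.11, adjusted p = 1.19e-06). Aipl1, a chaperone that photoreceptor phosphodiesterase needs, had 70.7 and 64.3 FPKM in CrxRip/Rip, against 467.8 and 434.0 FPKM in Nrl-/- (difference -2.72 ± 0.14, adjusted p = 1.19e-06). Outer segment discs were represented by Prph2, a tetraspanin of the disc rim, at 186.4 and 170.0 FPKM in CrxRip/Rip, against 363.4 and 336.7 FPKM in Nrl-/- (difference -0.97 ± 0.11, adjusted p = 8.90e-05). Its partner Rom1 had 74.1 and 89.1 FPKM in CrxRip/Rip, against 204.0 and 178.3 FPKM in Nrl-/- (difference -1.22 ± 0.13, adjusted p = 6.44e-05). Guca1a, Gucy2e, Aipl1, Prph2, Rom1 and Pde6b were named after their values were seen. Over the 23 outer segment and cilium genes 16 were lower, where 45.6% of all genes were, 1 was higher and 6 were not called. Their median was -0.66, and after rescaling 10 were lower and 4 higher. Without CrxRip/Rip sample 2, 16 were lower and 3 higher.

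At the photoreceptor synapse 9 of 12 genes were lower, where 45.6% of all genes were, 0 were higher and 3 were not called (median -0.68). Rescaling left 7 lower and put 2 higher. Cabp4, a calcium-binding protein that tunes the presynaptic calcium channel, had 2.4 and 1.8 FPKM in CrxRip/Rip, against 40.0 and 34.7 FPKM in Nrl-/- (difference -3.63 ± 0.15, adjusted p = 4.20e-07). The channel's pore gene Cacna1f had 45.4 and 57.6 FPKM in CrxRip/Rip, against 45.1 and 50.5 FPKM in Nrl-/- (difference 0.10 ± 0.12, adjusted p = 0.502). Cplx4, a complexin of the ribbon synapse, had 151.0 and 128.4 FPKM in CrxRip/Rip, against 160.5 and 128.8 FPKM in Nrl-/- (difference -0.05 ± 0.13, adjusted p = 0.773). The samples of both genotypes overlapped for Cacna1f and Cplx4, although rescaling turned Cacna1f into a higher call (0.44, adjusted p = 0.0117).

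**Figure D2:**
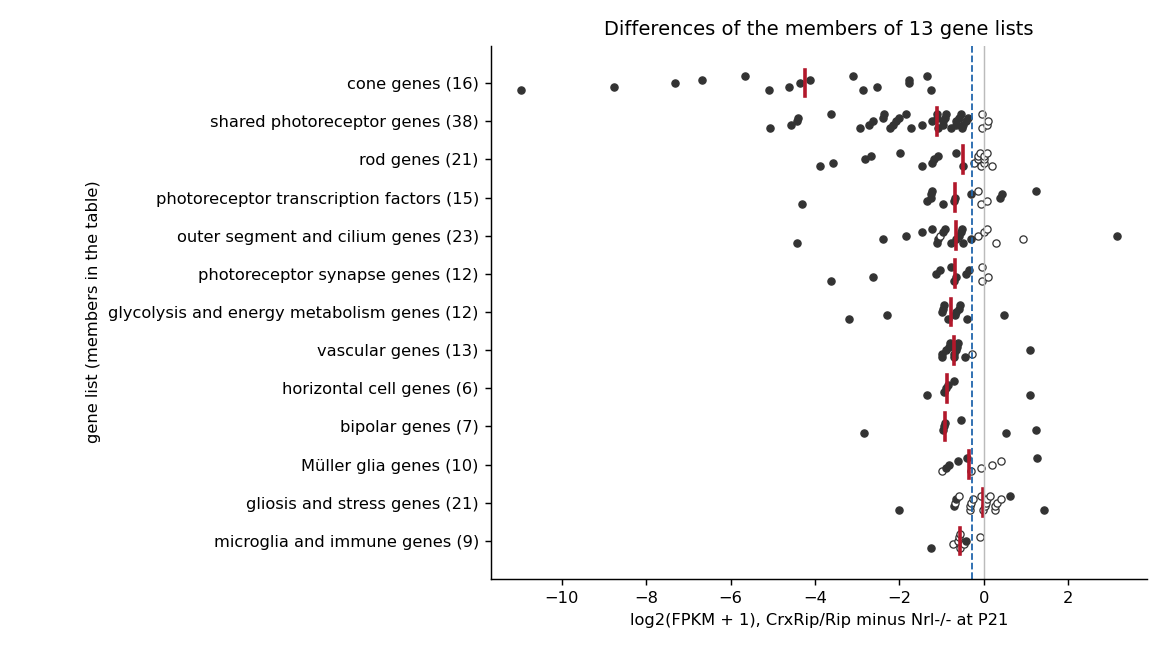
Difference in log2(FPKM + 1), CrxRip/Rip minus Nrl-/- at P21, for each member of the gene lists on the vertical axis, with the number of members in brackets. Filled points were called and open points were not, the red bar is the list's median, and the dashed line is the median of all 1497 genes (-0.28). The cone list lies farthest to the left, with a median of -4.24, while the gliosis and stress list lies around 0.

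Among 15 photoreceptor transcription factors in the table, 3 were higher, 9 were lower and 3 were not called (median -0.69). Over all genes 21.2% were higher and 45.6% lower. After rescaling 3 of the factors were higher and 7 lower. Without CrxRip/Rip sample 2, 1 was higher and 8 were lower. Crx, which is transcribed from the CrxRip allele and so does not check the label, had 174.1 and 218.8 FPKM in CrxRip/Rip, against 341.9 and 300.0 FPKM in Nrl-/- (difference -0.71 ± 0.13, adjusted p = 0.00126). Otx2, which acts upstream of Crx and also marks bipolar and pigment epithelial cells, had 263.5 and 289.0 FPKM in CrxRip/Rip, against 126.3 and 107.2 FPKM in Nrl-/- (difference 1.24 ± 0.11, adjusted p = 2.28e-05). In wild type Otx2 had 81.0 and 80.1 FPKM and Crx 350.7 and 343.9 FPKM. The 2 paralogous homeobox genes thus moved in opposite directions between the genotypes, and both kept their call and direction in all 12 alternative settings.

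Samd7, a Polycomb-associated regulator of photoreceptors whose promoter is printed above, had 0.0 and 0.1 FPKM in CrxRip/Rip, against 20.2 and 19.1 FPKM in Nrl-/- and 41.6 and 43.5 FPKM in wild type. Its difference was -4.30 ± 0.10 (adjusted p = 1.95e-08), the largest fall of the list. The regulators Sall3 and Rxrg, both tied to cones, were lower. Sall3, a zinc finger gene of cones, had 1.2 and 2.9 FPKM in CrxRip/Rip, against 6.6 and 6.4 FPKM in Nrl-/- (difference -1.36 ± 0.23, adjusted p = 0.00106). Rxrg, the retinoid receptor of cones, had 6.4 and 8.2 FPKM in CrxRip/Rip, against 20.0 and 17.4 FPKM in Nrl-/- (difference -1.25 ± 0.16, adjusted p = 1.93e-04). Esrrb, a nuclear receptor of rods, had 0.2 and 0.3 FPKM in CrxRip/Rip, against 1.9 and 2.0 FPKM in Nrl-/-, with both far from the 71.7 and 95.1 FPKM of wild type. Ppargc1b and Rorb were the other factors called higher, by 0.44 ± 0.12 (adjusted p = 0.0143) and 0.38 ± 0.14 (adjusted p = 0.0410), and each lost that call in some alternative settings. Prdm1, which holds back bipolar genes in photoreceptor precursors, was called lower by a difference of -0.31 (adjusted p = 0.0237), and its difference was 0.0104 (adjusted p = 0.932) after rescaling.

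Of 12 genes of glycolysis and energy metabolism 11 were lower, where 45.6% of all genes were, and 1 was higher (median -0.77). After rescaling 7 were lower and 1 higher. Hk2, a hexokinase with high expression in photoreceptors, had 5.2 and 4.7 FPKM in CrxRip/Rip, against 48.2 and 59.6 FPKM in Nrl-/- and 47.9 and 71.7 FPKM in wild type (difference -3.20 ± 0.20, adjusted p = 4.35e-06). Ckmt1, a mitochondrial creatine kinase, had 14.8 and 15.2 FPKM in CrxRip/Rip, against 81.7 and 74.6 FPKM in Nrl-/- (difference -2.31 ± 0.13, adjusted p = 2.71e-06). Hk1, the other hexokinase of the list, had 34.9 and 37.5 FPKM in CrxRip/Rip, against 72.6 and 71.7 FPKM in Nrl-/- (difference -0.98 ± 0.09, adjusted p = 3.17e-05). The 2 hexokinase genes fell by different amounts.

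Few genes of the inner retina were in the table, where 45.6% of all genes were lower and 21.2% higher. Of 7 bipolar genes 5 were lower and 2 higher (median -0.93). Cabp5, a calcium-binding protein of bipolar cells, had 19.4 and 23.2 FPKM in CrxRip/Rip, against 159.1 and 155.0 FPKM in Nrl-/- and 32.5 and 45.6 FPKM in wild type (difference -2.83 ± 0.17, adjusted p = 2.93e-06). Horizontal cell genes showed 5 of 6 members lower and 1 higher (median -0.87), and those counts held after rescaling. Calb1, the calcium buffer that marks horizontal cells, had 13.5 and 11.1 FPKM in CrxRip/Rip, against 25.0 and 22.1 FPKM in Nrl-/- (difference -0.89 ± 0.13, adjusted p = 3.55e-04). Kdr, a receptor for vascular endothelial growth factor in endothelium and also in horizontal cells, went the other way, at 51.0 and 32.6 FPKM in CrxRip/Rip, against 17.8 and 19.7 FPKM in Nrl-/- (difference 1.08 ± 0.21, adjusted p = 0.00204). Of 3 amacrine genes 1 was lower and 2 were not called, and none of the ganglion cell list was in the table.

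Endothelial genes were lower apart from Kdr. Of 13 vascular genes 11 were lower, where 45.6% of all genes were, 1 was higher and 1 was not called (median -0.70). After rescaling 10 were lower and 1 higher. Cldn5, the tight junction protein of endothelium, had 3.2 FPKM in both CrxRip/Rip samples, against 7.9 and 6.8 FPKM in Nrl-/- (difference -0.99 ± 0.15, adjusted p = 5.85e-04). Pecam1, an adhesion molecule of endothelium that was named after its values were seen, had 1.7 and 1.9 FPKM in CrxRip/Rip, against 3.6 and 3.3 FPKM in Nrl-/- (difference -0.67 ± 0.11, adjusted p = 6.85e-04). Blood transcripts moved with them, since the summed FPKM of the 5 haemoglobin genes in the table was 8.9 and 44.5 in CrxRip/Rip, against 44.9 and 92.0 in Nrl-/-. Of these near-identical copies, among which reads may be split uncertainly, 3 were lower, 0 higher and 2 not called. Without CrxRip/Rip sample 2, the higher of its pair, all 5 were lower. The part of blood content in the endothelial difference was not tested.

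Most glial stress genes were not called between the genotypes. Of 21 gliosis and stress genes 2 were higher, 3 were lower and 16 were not called (median -0.02). Over all genes 21.2% were higher and 45.6% lower. After rescaling 5 of the gliosis and stress genes were higher and 2 lower. Without CrxRip/Rip sample 2, 3 were higher and 2 lower. Gfap, the intermediate filament of reactive glia, had 8.6 and 6.5 FPKM in CrxRip/Rip, against 9.6 and 8.7 FPKM in Nrl-/- and 4.5 and 3.7 FPKM in wild type (difference from Nrl-/- -0.26 ± 0.17, adjusted p = 0.212). Socs3, an inhibitor of cytokine signalling, had 0.4 and 0.2 FPKM in CrxRip/Rip, against 4.5 and 4.0 FPKM in Nrl-/- (difference -2.02 ± 0.23, adjusted p = 1.19e-04). Nupr1, a stress-induced nuclear protein, had 10.8 and 7.9 FPKM in CrxRip/Rip, against 3.2 and 2.5 FPKM in Nrl-/- (difference 1.42 ± 0.30, adjusted p = 0.00357). Of 10 Müller glia genes 1 was higher, 4 were lower and 5 were not called (median -0.35), with 3 higher and 3 lower after rescaling, and 2 higher and 5 lower without CrxRip/Rip sample 2. Sox9, a transcription factor of Müller glia, was the higher one, at 7.4 and 6.3 FPKM in CrxRip/Rip, against 2.6 and 2.0 FPKM in Nrl-/- (difference 1.25 ± 0.15, adjusted p = 1.71e-04).

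Microglia and immune genes were sparse, with 2 of 9 lower, 0 higher and 7 not called (median -0.57), where 45.6% of all genes were lower, and 1 was lower after rescaling. Their summed level was 19.8 and 15.2 FPKM in CrxRip/Rip, against 44.3 and 21.6 FPKM in Nrl-/-, where sample 1 was the high one.

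For the retinoid cycle, which regenerates the visual chromophore, the counts stand beside 45.6% of all genes lower and 21.2% higher. Of 13 genes 5 were lower, 1 was higher and 7 were not called (median 0.14), with 3 lower and 4 higher after rescaling and 0 higher without CrxRip/Rip sample 2. Besides Rdh8, Rdh12, a second retinol dehydrogenase of photoreceptors, had 12.6 and 10.7 FPKM in CrxRip/Rip, against 53.6 and 51.1 FPKM in Nrl-/- (difference -2.08 ± 0.18, adjusted p = 2.67e-05). Rbp3, the retinoid-binding protein of the space around photoreceptors, had 485.4 and 564.3 FPKM in CrxRip/Rip, against 946.2 and 1015.7 FPKM in Nrl-/- (difference -0.90 ± 0.12, adjusted p = 2.55e-04). Rpe65, the isomerase of the pigment epithelium, had 4.2 FPKM in both CrxRip/Rip samples, against 4.3 and 2.8 FPKM in Nrl-/- (adjusted p = 0.577, not called). Of 11 pigment epithelium genes 1 was higher, 1 was lower and 9 were not called, with 3 higher and 1 lower after rescaling, and 2 higher without CrxRip/Rip sample 1. The higher one was Otx2, whose values are given above. Krt18, a keratin that was the lower one, had 1.4 and 1.5 FPKM in CrxRip/Rip, against 18.1 and 20.1 FPKM in Nrl-/- and 16.7 and 18.2 FPKM in wild type (difference -3.03 ± 0.20, adjusted p = 4.52e-06). Rpe65 was named after its values were seen.

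Of 9 genes on a list of chloride and potassium channels 6 were lower, where 45.6% of all genes were, 1 was higher and 2 were not called (median -0.87), with 5 lower and 1 higher after rescaling. Kcnv2, a modulatory potassium channel subunit of photoreceptors, had 17.6 and 11.9 FPKM in CrxRip/Rip, against 67.2 and 56.1 FPKM in Nrl-/- and 127.7 and 119.3 FPKM in wild type (difference -2.01 ± 0.17, adjusted p = 2.14e-05). For Kcnv2 the CrxRip/Rip samples were the lowest of the 3 genotypes. Kcnj14, an inward rectifier, had 0.4 FPKM in both CrxRip/Rip samples, against 0.5 FPKM in both Nrl-/- samples and 74.8 and 74.3 FPKM in wild type (adjusted p = 0.482, not called). Gabrr3, a GABA receptor subunit, had 5.0 and 4.9 FPKM in CrxRip/Rip, against 9.7 and 11.1 FPKM in Nrl-/- (difference -0.94 ± 0.10, adjusted p = 6.92e-05).

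Of 4 axon guidance and adhesion genes 3 were lower, where 45.6% of all genes were, and 1 was higher. Ntng2, a netrin-like adhesion protein, had 5.0 and 8.0 FPKM in CrxRip/Rip, against 40.6 and 38.4 FPKM in Nrl-/- (difference -2.46 ± 0.17, adjusted p = 6.88e-06). Slitrk6, a membrane protein of neurite growth, was higher and averaged 42.4 ± 4.03 FPKM in CrxRip/Rip, against 11.85 ± 0.21 FPKM in Nrl-/- (SD, n = 2 each). Its difference was 1.75 ± 0.10 (adjusted p = 3.00e-06). Of 10 immediate early genes, which respond quickly to activity and stress, 2 were higher, 4 were lower and 4 were not called. These counts were near the shares over all genes, 21.2% higher and 45.6% lower. After rescaling 3 were higher and 3 lower, and without CrxRip/Rip sample 2, 1 was higher. Ier3 had 4.1 and 3.5 FPKM in CrxRip/Rip, against 13.3 and 15.5 FPKM in Nrl-/- (difference -1.68 ± 0.11, adjusted p = 6.06e-06). Egr1 had 44.2 and 57.5 FPKM in CrxRip/Rip, against 27.8 and 58.8 FPKM in Nrl-/-, and the genotypes overlapped (adjusted p = 0.380). Of 5 progenitor and cell cycle genes 1 was higher, 1 was lower and 3 were not called, with 2 higher and 0 lower after rescaling. Without CrxRip/Rip sample 2, 3 were lower, and without sample 1, 0 were.

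Apart from Kif19a, of the cilium list, the largest rises lay outside the photoreceptor lists. Acbd7, a gene of the acyl-CoA-binding protein family whose promoter is printed above, had 28.8 and 25.6 FPKM in CrxRip/Rip, against 0.9 and 1.1 FPKM in Nrl-/- and 1.6 FPKM in both wild-type samples (difference from Nrl-/- 3.82 ± 0.16, adjusted p = 4.64e-07). Atp13a5, a P5-type ATPase, had 16.8 and 17.2 FPKM in CrxRip/Rip, against 0.6 FPKM in both Nrl-/- samples (difference 3.49 ± 0.09, adjusted p = 3.59e-08). Kif19a, a kinesin that shortens cilia, had 27.0 and 48.6 FPKM in CrxRip/Rip, against 3.0 and 3.4 FPKM in Nrl-/- (difference 3.15 ± 0.25, adjusted p = 1.62e-05). In wild type Atp13a5 had 0.4 and 0.3 FPKM and Kif19a 1.1 and 0.7 FPKM. In CrxRip/+ Acbd7 had 6.9 and 4.7 FPKM, Atp13a5 had 1.5 FPKM in both samples and Kif19a had 26.9 and 20.2 FPKM, so that for Kif19a the level of CrxRip/+ sample 1 was close to that of CrxRip/Rip sample 1. Galnt14, a glycosyltransferase, had 31.7 and 38.5 FPKM in CrxRip/Rip, against 5.0 and 5.4 FPKM in Nrl-/- (difference 2.54 ± 0.15, adjusted p = 2.85e-06). Srl, which encodes the calcium-binding protein sarcalumenin, had 12.6 and 10.1 FPKM in CrxRip/Rip, against 1.7 and 1.6 FPKM in Nrl-/- (difference 2.21 ± 0.12, adjusted p = 1.61e-06). Mdga1, an adhesion molecule that binds neuroligins, had 16.9 and 18.0 FPKM in CrxRip/Rip, against 3.9 and 3.1 FPKM in Nrl-/- (difference 2.04 ± 0.13, adjusted p = 4.17e-06).

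The genes Mybph and Tnnc2, known from muscle, were also called higher. Mybph, which encodes a myosin-binding protein, had 9.3 and 67.4 FPKM in CrxRip/Rip, against 2.3 and 2.1 FPKM in Nrl-/- (difference 3.05 ± 0.69, adjusted p = 0.00464). Tnnc2, the troponin C of fast muscle, had 1.6 and 9.7 FPKM in CrxRip/Rip and was listed at 0 in both Nrl-/- samples (adjusted p = 0.00396). Srl, also known from muscle and given above, was not higher in CrxRip/Rip sample 2 than in sample 1. For Mybph and Tnnc2, CrxRip/Rip sample 2, which also held the lens transcripts, was the high one, and its part in these rises was not tested. Without that sample the difference of Mybph was 1.69 (adjusted p = 4.17e-05), and without sample 1 it was 4.42 (adjusted p = 4.93e-07). That of Acbd7 lay between 3.74 and 3.90 without either of the CrxRip/Rip samples.

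A further 5 genes outside the lists were higher, each chosen after its values were seen. Chgb, a granin of secretory granules, had 644.9 and 680.2 FPKM in CrxRip/Rip, against 197.8 and 198.5 FPKM in Nrl-/- and 107.8 and 101.9 FPKM in wild type (difference from Nrl-/- 1.74 ± 0.09, adjusted p = 1.89e-06). Fabp7, a fatty acid-binding protein of neural progenitors and glia, had 148.7 and 257.6 FPKM in CrxRip/Rip, against 76.9 and 63.6 FPKM in Nrl-/- and 2.0 and 1.4 FPKM in wild type (difference from Nrl-/- 1.47 ± 0.27, adjusted p = 0.00145). Fabp7 was thus above wild type in both mutants and highest in CrxRip/Rip. The transcription factor genes Dach1 and Sox6 had 25.2 and 25.9 FPKM and 9.8 and 7.3 FPKM in CrxRip/Rip, against 8.2 and 7.1 FPKM and 1.9 and 2.0 FPKM in Nrl-/-. Their differences were 1.62 ± 0.11 and 1.68 ± 0.13 (higher adjusted p = 1.49e-05). Vipr2, a receptor for vasoactive intestinal peptide, had 30.3 and 29.7 FPKM in CrxRip/Rip, against 10.4 and 10.2 FPKM in Nrl-/- (difference 1.46 ± 0.08, adjusted p = 2.65e-06).

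The cone list also holds members that are not phototransduction genes, all among its 16 members counted above. They are Otop3, Kcne2, Clca3, Ccdc136 and the regulators Sall3 and Rxrg. Otop3, a proton channel of the otopetrin family, had 0.5 and 2.1 FPKM in CrxRip/Rip, against 53.0 and 50.3 FPKM in Nrl-/- and 3.2 and 3.0 FPKM in wild type (difference from Nrl-/- -4.61 ± 0.28, adjusted p = 3.04e-06). Kcne2, an accessory subunit of potassium channels, had 3.5 and 4.0 FPKM in CrxRip/Rip, against 170.6 and 153.5 FPKM in Nrl-/- (difference -5.10 ± 0.10, adjusted p = 9.78e-09). Eya1, a transcriptional coactivator and phosphatase, had 0.2 and 0.4 FPKM in CrxRip/Rip, against 12.2 and 11.8 FPKM in Nrl-/- and 0.5 FPKM in both wild-type samples (difference from Nrl-/- -3.33 ± 0.10, adjusted p = 1.06e-07). Gckr, the regulatory protein of glucokinase, had 1.4 and 1.5 FPKM in CrxRip/Rip, against 57.9 and 56.5 FPKM in Nrl-/- (difference -4.57 ± 0.13, adjusted p = 5.49e-08). Eya1 and Gckr, which are on none of the lists, were chosen after their values were seen.

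**Figure D3:**
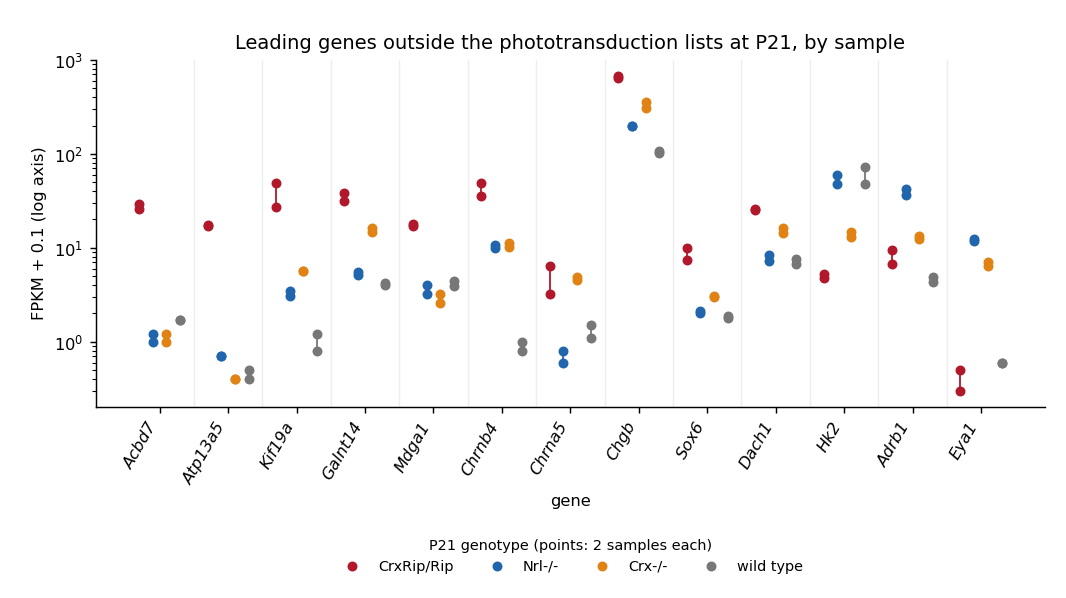
FPKM + 0.1 on a log axis of 13 leading genes outside the phototransduction lists at P21, with 1 point per sample (2 per genotype, joined by a line) for CrxRip/Rip, Nrl-/-, Crx-/- and wild type. From Acbd7 to Dach1 the CrxRip/Rip points lie above the Nrl-/- points, and from Hk2 to Eya1 they lie below them, with Acbd7 at 28.8 and 25.6 FPKM against 0.9 and 1.1 FPKM.

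Crx-/- retinas, which lack Crx, were set beside the pair. The comparisons of CrxRip/Rip and of Crx-/- with Nrl-/- share the Nrl-/- samples, so their difference was tested as CrxRip/Rip minus Crx-/-. This called 799 of 1497 genes (53.4%), 291 higher (19.4%) and 508 lower (33.9%) in CrxRip/Rip, and after rescaling 406 higher (27.1%) and 391 lower (26.1%). Opn1mw was not called, at 0.5 and 0.7 FPKM in CrxRip/Rip and 0.6 and 0.8 FPKM in Crx-/- (difference -0.09 ± 0.12, adjusted p = 0.559). Rcvrn had 4.0 and 9.8 FPKM in CrxRip/Rip, against 7.5 and 7.0 FPKM in Crx-/- (difference -0.17 ± 0.40, adjusted p = 0.752). Opn1sw and Arr3 were lower than in Crx-/-, which had 2.7 FPKM in both samples and 47.2 and 40.2 FPKM, by differences of -1.62 ± 0.11 and -4.81 ± 0.20 (higher adjusted p = 9.62e-06).

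The rod regulators and Samd7 set CrxRip/Rip apart from Crx-/-. Nrl had 0.1 and 0.2 FPKM in CrxRip/Rip, against 87.2 and 82.0 FPKM in Crx-/- (difference -6.22 ± 0.14, adjusted p = 2.60e-08). Nr2e3 was listed at 0 in CrxRip/Rip, against 118.0 and 110.0 FPKM in Crx-/-. For both genes CrxRip/Rip lay with Nrl-/- near 0, although Crx-/- did not. Samd7 had 0.0 and 0.1 FPKM in CrxRip/Rip, against 146.2 and 132.6 FPKM in Crx-/- (difference -7.06 ± 0.10, adjusted p = 2.08e-09), so that Crx-/- was above Nrl-/- and wild type. Acbd7 and Atp13a5 had 1.1 and 0.9 FPKM and 0.3 FPKM in both samples of Crx-/-, so the rise in CrxRip/Rip was as large against Crx-/- (differences 3.82 ± 0.16 and 3.79 ± 0.09) as against Nrl-/-. Ankrd33, a photoreceptor regulator called lower than in Nrl-/- (difference -0.69 ± 0.16, adjusted p = 0.00507) but not after rescaling (adjusted p = 0.0724), had 52.9 and 71.7 FPKM in CrxRip/Rip, against 2.8 and 2.2 FPKM in Crx-/- (difference 4.17 ± 0.16, adjusted p = 5.30e-07).

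At P2 the genotypes were not alike in the rod regulators. A total of 198 genes were in both the P21 and the P2 table, which was normalized separately, so values are set side by side within each age with no test between ages. Nrl had 36.5 and 43.2 FPKM in CrxRip/Rip, against 0.1 FPKM in both Nrl-/- samples at P2. Nr2e3 had 61.4 and 70.2 FPKM in CrxRip/Rip, against 0.1 and 0.0 FPKM in Nrl-/- at P2. At P21, as given above, both genes were at or near 0 in both genotypes. For the cone opsin Opn1sw the order was the same at both ages, with 0.1 FPKM in both CrxRip/Rip samples, against 39.5 and 40.5 FPKM in Nrl-/- at P2. Acbd7 too was already apart at P2, at 5.2 and 6.2 FPKM in CrxRip/Rip, against 0.2 and 0.1 FPKM in Nrl-/-.

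Of the 198 genes, 33 had both CrxRip/Rip samples above both Nrl-/- samples at both ages and 83 had them below at both ages. Over all 1497 genes at P21, 27.6% had both CrxRip/Rip samples above both Nrl-/- samples and 52.9% had them below. There were 32 genes that were above at P2 and below at P21, and 8 that were below at P2 and above at P21. In the rest the genotypes overlapped at either age or both. Of these, 19 were above and 6 below at P2 only, 2 were above and 9 below at P21 only, and 6 overlapped at both ages. Whether opposite directions were more or less frequent than the shares at each age would give was not tested. Photoreceptor genes were found among the 32. Pdc, which encodes phosducin, a regulator of transducin, had 54.1 and 68.9 FPKM in CrxRip/Rip, against 2.8 and 2.9 FPKM in Nrl-/- at P2, and 172.2 and 220.2 FPKM in CrxRip/Rip, against 495.3 and 580.1 FPKM in Nrl-/- at P21. Sag had 5.2 and 9.2 FPKM in CrxRip/Rip, against 1.1 and 0.8 FPKM in Nrl-/- at P2, in contrast to the lower level at P21 given above. Rom1 had 37.1 and 41.8 FPKM in CrxRip/Rip, against 12.3 and 10.7 FPKM in Nrl-/- at P2. These genes were higher at P2 and lower at P21 in CrxRip/Rip without overlap at either age, and Pdc was named after its values were seen.

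**Figure D4:**
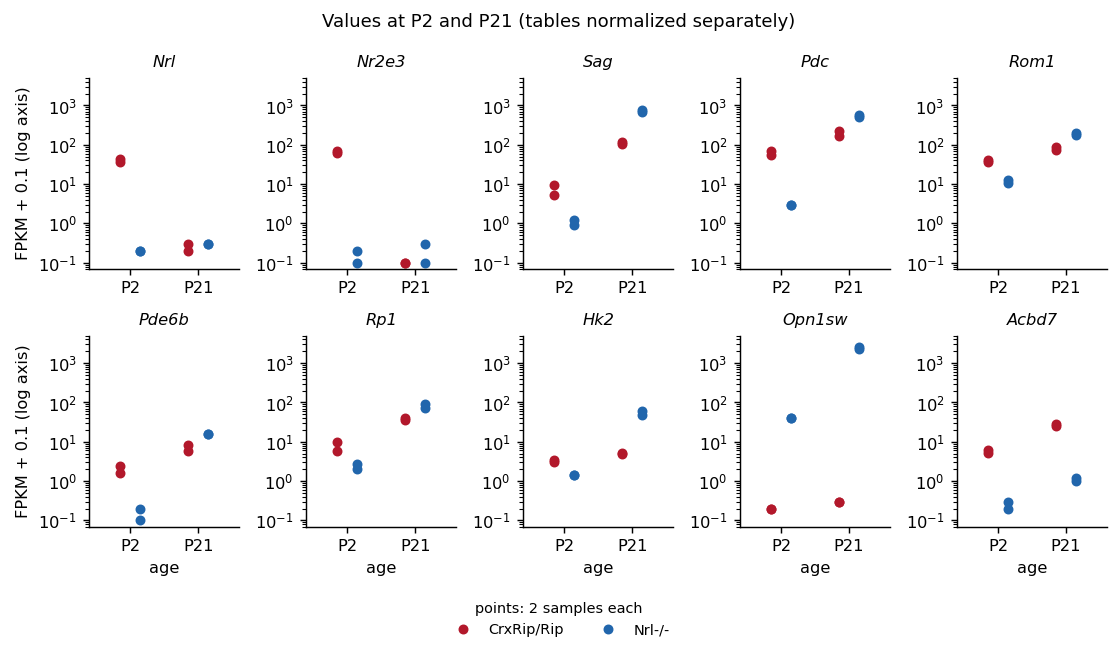
FPKM + 0.1 on a log axis of 10 genes at P2 and P21, with 1 point per sample for CrxRip/Rip and Nrl-/- (2 samples each), from tables that were normalized separately. Nrl and Nr2e3 are above 36 FPKM in CrxRip/Rip at P2 and at or below 0.2 FPKM in both genotypes at P21, Opn1sw and Acbd7 keep their order, and Sag, Pdc, Rom1, Pde6b, Rp1 and Hk2 are higher in CrxRip/Rip at P2 and lower at P21.

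The authors' deposited table holds its own comparison of the pair. At an adjusted p under 0.05 in the authors' deposited table, 288 genes (19.2%) were higher and 743 (49.6%) lower in CrxRip/Rip. With the further limits of a log2 fold change of 1 and a mean of 2 FPKM in either genotype, the authors' deposited table held 137 higher (9.15%) and 416 lower genes (27.8%). In 935 genes the direction and the call were the same here and in the authors' deposited table, which is 93.5% of the genes called here and 90.6% of the 1032 called there, of which 1 had a fold change of 0. Fold changes in the authors' deposited table are ratios without a pseudocount, so they are larger for genes with low FPKM, such as a log2 fold change of -9.0 for Samd7 and -13.98 for Opn1sw.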

How the data were processed

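RNA of whole retina was sequenced in 20 samples with directional libraries, per the labels. The deposited P21 table gives FPKM for each sample, rounded to 1 decimal, per the file headers. It also holds, for each pair of genotypes, an adjusted p-value and a log2 fold change that the authors deposited. DESeq is the tool that the submitters' processing notes name, with no version. The sources used here do not give the aligner, the annotation or the genome build used for alignment. Tested on the deposited values, each gene of the table met 3 limits in at least 1 of the authors' comparisons, namely adjusted p below 0.05, log2 fold of 1 or more in size and 2 FPKM or more in a genotype's mean. Selection of genes by these samples means that the share of false calls is not known. FPKM gives no counts, so depth, counting error and intervals from counts are unknown.

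The 10 P21 samples were fitted as log2(FPKM + 1) in limma 3.58.1 under R 4.3.3, with 1 term per genotype, a variance trend and empirical Bayes moderation (5 residual and 3.06 prior degrees of freedom). Tests were two-sided, and each of 4 contrasts was adjusted over 1497 genes. With 2 samples against 2, the smallest p of an exact permutation test is 0.33, so no such test was run. Each gene was tested in the limma fit, whose spread estimate borrows from the other genes and uses all 10 samples. On simulated data for the CrxRip/Rip and Nrl-/- comparison, run on 1497 genes, 1297 were left unchanged, and 9 of these were called. Of the others, 94 of 100 genes changed by 1 and 99 of 100 changed by 2 were called. Changes were placed only in genes whose mean on the log2(FPKM + 1) scale was above the level of 5 FPKM, so these rates do not cover lower genes. The real table was selected for genes that differ, and 66.8% of its genes were called in this comparison. Whether the simulated rates hold for that table was not tested. Samples were grouped by their titles. The main fit did not pair samples by replicate number. Symbols were updated for 20 genes through RefSeq, which matched 1485 of 1497 transcript identifiers, and promoters were found for 1154 genes. Coordinates and promoters are those of RefSeq in GRCm38.p6.

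The gene lists, 26 in all and 24 with members in the table, and the rule for named genes were written with earlier results of these data known. The rule takes the photoreceptor transcription factors, the 10 largest rises and falls among called genes with a mean of at least 5 FPKM and no overlap, up to 4 called and 2 uncalled members per list, and 5 genes each way by further contrasts. A subset is given. Gnat1, Cnga1 and Gfap are named as cell type markers. Alternatives were pseudocounts of 0.1 and 5, a filter at 5 FPKM, rescaling by the median of ratios, the 4 samples alone, no variance trend, a replicate block and leaving out each sample. Scaling by the factor implied by the authors' fold changes was added after seeing the data. Some genes are not reported here.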

Additional observations from a re-analysis of the deposited data

Results flagged for a closer look

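In 15 genes that are list members or named here, the CrxRip/Rip samples stood on one side of both Nrl-/- samples at P2 and on the other side at P21. These genes drew attention because the directions at the 2 ages were opposite, with at least 2 FPKM in a sample at P2. The difference between the ages was not tested, since the tables were normalized separately. Of the 15, 13 were higher in CrxRip/Rip at P2 and lower at P21, and Hmox1 and Mt2 were lower at P2 and higher at P21. The P21 difference was called in 12 of them, all lower at P21, and not called in Reep6, Hmox1 and Mt2. Over all 198 genes in both tables, 32 were higher at P2 and lower at P21 and 8 the reverse, while 33 were higher and 83 lower at both ages. Whether opposite directions were more or less frequent than the shares at each age would give was not tested.

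Among genes of phototransduction the P21 difference was -2.69 for Sag, -1.46 for Pdc and -1.09 for Pde6b. At P2 Pde6b had 1.5 and 2.3 FPKM in CrxRip/Rip, against 0.1 and 0.0 FPKM in Nrl-/-. Gngt1, the rod transducin gamma subunit, had 2.8 and 4.8 FPKM in CrxRip/Rip, against 0.4 and 0.5 FPKM in Nrl-/- at P2, and a P21 difference of -0.67. Among outer segment genes the P21 difference was -1.22 for Rom1, -1.10 for Rp1 and -0.59 for Rp1l1. Rp1, an axonemal gene of outer segments, had 5.7 and 9.5 FPKM in CrxRip/Rip, against 1.9 and 2.6 FPKM in Nrl-/- at P2. At P2 Rp1l1 had 3.1 and 2.9 FPKM in CrxRip/Rip, against 2.2 and 2.6 FPKM in Nrl-/-.

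Of the synaptic genes Slc17a7, a vesicular glutamate transporter, had a P21 difference of -0.77 and Lrit2 one of -0.42. At P2 Slc17a7 had 2.7 FPKM in both CrxRip/Rip samples, against 1.8 and 2.2 FPKM in Nrl-/-. In energy metabolism 2 genes showed the pattern, with P21 differences of -3.20 for Hk2 and -0.60 for Slc16a3, a lactate transporter. Hk2 had 3.4 and 3.0 FPKM in CrxRip/Rip, against 1.3 FPKM in both Nrl-/- samples at P2. Slc16a3 had 15.1 and 14.3 FPKM in CrxRip/Rip, against 2.1 and 1.4 FPKM in Nrl-/- at P2. Insm2, a zinc finger gene, had a P21 difference of -0.87, with 6.7 and 4.6 FPKM in CrxRip/Rip, against 2.6 and 3.7 FPKM in Nrl-/- at P2. After rescaling by the median of ratios the P21 calls of Rp1l1, Lrit2 and Slc16a3 were lost (adjusted p = 0.0522, 0.659 and 0.113).

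Reep6, of the rod list, had 1.8 and 2.1 FPKM in CrxRip/Rip, against 1.3 and 1.2 FPKM in Nrl-/- at P2, and a P21 difference of -0.23 (adjusted p = 0.158). Hmox1, the stress-induced haem oxygenase, had 2.1 and 3.2 FPKM in CrxRip/Rip, against 3.8 and 4.0 FPKM in Nrl-/- at P2, and a P21 difference of 0.0740 (adjusted p = 0.656). Mt2, a metallothionein, had 0.8 and 0.7 FPKM in CrxRip/Rip, against 4.5 and 4.8 FPKM in Nrl-/- at P2, and a P21 difference of 0.16 (adjusted p = 0.733).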

How the results depend on the processing

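The direct comparison called 1000 genes, and between 799 and 1007 under 8 alternative settings that kept all samples or dropped genes or groups, with 938, 959, 845 and 840 when 1 of its 4 samples was left out. The setting that moved the split was rescaling by the median of ratios, with 489 higher and 478 lower genes against 317 and 683. The authors' implied scaling shifted the median the other way, by -0.08, and gave 263 higher and 744 lower genes. Rescaling assumes that most genes are unchanged, which a table of selected genes may not meet. The difference of Prdm1 reversed to 0.0104 after rescaling. Correlations of deviations between same-numbered samples ran from -0.30 (CrxRip/+ with CrxRip/Rip) to 0.24 (CrxRip/Rip with Nrl-/-, the compared pair). They were not tested and cannot exclude a shared effect of replicate number. The replicate block gave 993 called genes. Of 128 named genes that were called, 108 kept call and direction in all 12 alternatives and 20 did not.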

Other observations

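Several gene families outside the lists moved between CrxRip/Rip and Nrl-/-, and they were chosen after their values were seen. All 3 nicotinic acetylcholine receptor subunit genes of the P21 table were higher in CrxRip/Rip, where 21.2% of all genes were. Chrnb4 had 48.4 and 35.3 FPKM in CrxRip/Rip, against 10.7 and 9.8 FPKM in Nrl-/- and 0.7 and 0.9 FPKM in wild type (difference from Nrl-/- 1.91, adjusted p = 0.00146). Chrna3 had 9.9 and 8.5 FPKM in CrxRip/Rip, against 3.3 and 3.7 FPKM in Nrl-/- (difference 1.18, adjusted p = 1.04e-04). Chrna5 had 6.3 and 3.1 FPKM in CrxRip/Rip, against 0.5 and 0.7 FPKM in Nrl-/- (difference 1.78, adjusted p = 9.14e-04). The 3 genes are neighbours, at chr9:54980827-55011420 (Chrna5), chr9:55010117-55026562 (Chrna3) and chr9:55028154-55048953 (Chrnb4). The annotated spans of Chrna5 and Chrna3 overlap, so the split of reads between them is uncertain. Adrb1, an adrenergic receptor, had 9.4 and 6.7 FPKM in CrxRip/Rip, against 42.4 and 36.5 FPKM in Nrl-/- (difference -2.17, adjusted p = 6.29e-05).

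Among the 11 histone genes, 5 were higher, 2 were lower and 4 were not called, where 21.2% of all genes were higher and 45.6% lower. Hist1h1e, a linker histone, had 6.7 and 7.3 FPKM in CrxRip/Rip, against 1.1 and 1.3 FPKM in Nrl-/- (difference 1.86, adjusted p = 3.09e-06). Hist1h2ac had 6.2 and 4.8 FPKM in CrxRip/Rip, against 0.7 FPKM in both Nrl-/- samples (difference 1.93, adjusted p = 4.14e-06). Hist3h2a was lower, with 52.5 and 46.5 FPKM in CrxRip/Rip, against 79.6 and 81.6 FPKM in Nrl-/- (difference -0.69, adjusted p = 1.42e-04). Some histone genes are near-identical copies of each other, so the split of reads among such copies is uncertain.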
